A study of Homo sapiens with 12 samples.

Results

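Complement is a cascade of serum and cell-surface proteins that tags targets with fragments of C3 and can end in a pore in the target membrane. Its classical pathway works through the proteases C1r and C1s and its alternative pathway through factor B. Soluble and membrane-bound regulators restrain the cascade on host cells. Liver makes most of the circulating proteins, but glia and tumor cells also transcribe complement genes, several of which are known targets of IFNγ. The 9 genes examined here were *C1R* and *C1S* (classical pathway proteases), *C3* (the central component), *CFB* (factor B), the soluble regulators *SERPING1* and *CFI*, and the membrane regulators *CD46*, *CD55* and *CD59*. They were taken by gene name from the 45416 genes of the deposited table, and all 9 passed the filter on low values.

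U251, an established human glioblastoma cell line of wild-type genotype, received an siRNA control (siNC) or 1 of 2 *PD-L1* siRNAs, called siPDL1-1 and siPDL1-2. Cells of each transfection were left unstimulated or were stimulated with IFNγ at 100 U/ml for 24 h, starting 48 h after transfection. RNA-seq of polyadenylated RNA gave 12 libraries, 2 for each of the 6 conditions, which per the study's methods came from independent experiments. All groups are therefore 1 cell line carrying a transfected siRNA, with no untransfected cells, and 2 libraries per condition limit every estimate of spread. Values are normalized CPM, reads on a gene scaled to a common library size, and a gene was called changed at a false discovery rate (FDR) under 0.01 with a fold change over 1.5. Differences are on the log2(CPM + 1) scale, which understates the change between 2 conditions of genes with low values. A difference between 2 such changes, as in an interaction, can come out smaller or larger for this reason. In bulk RNA, a change in the number of cells that express a gene and a change in RNA per cell cannot be told apart.

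Libraries held between 17101069 and 55657393 reads on genes, and 1 read was worth between 0.0187 and 0.0586 CPM. The glioma markers *VIM*, *NES*, *CD44*, *EGFR*, *TNC* and *SOX2* were at 108 CPM or above in all 12 libraries, whereas *GFAP* lay between 1.92 and 7.25 CPM, *S100B* between 2.40 and 5.92 CPM and *OLIG2* at or under 0.359 CPM, with 2 libraries at 0. The 8 microglia or macrophage markers summed to between 0.470 and 1.31 CPM, with only *CSF1R* over 1 CPM in any library. The 3 T cell markers summed to at most 0.024 CPM and the 4 hepatocyte markers to at most 0.464 CPM. The 3 neuron markers summed to between 2.89 and 5.28 CPM, and the 3 endothelial markers to between 3.86 and 5.63 CPM unstimulated and between 2.01 and 3.25 CPM after IFNγ. The part of these low levels in the results was not tested. The targeted gene, *CD274* (PD-L1), was at 4.60 and 4.91 CPM in siNC, 2.67 and 2.73 CPM in siPDL1-1, and 3.57 and 3.45 CPM in siPDL1-2 unstimulated cells. After IFNγ it reached 71.2 and 76.0 CPM in siNC, 61.0 and 66.7 CPM in siPDL1-1, and 37.5 and 35.0 CPM in siPDL1-2. After IFNγ, *CD274* thus fell by 1.00 on the log2 scale in siPDL1-2 (FDR = 2.79e-05), and the siPDL1-1 difference of -0.20 missed the thresholds (FDR = 0.0604). In unstimulated cells *CD274* was called lower with siPDL1-1 (-0.64, FDR = 1.76e-05). The unstimulated siPDL1-2 difference of -0.35 passed the FDR but not the fold threshold (FDR = 0.00183).

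RefSeq promoter sequences, from 250 bases before to 50 bases after a start site in GRCh38.p14, were available for 6 of the 9 genes in 11 windows of 300 bases. They were searched on both strands for the gamma-activated site TTCNNNGAA, for the interferon-stimulated response element, 2 copies of GAAA separated by any 2 bases, and for the NF-kB motif. The windows of *CFB*, *C1R* and *CD59* are shown because those genes held the matches, which stand in capitals, with the outer *C1R* window beside the inner one for comparison. *CFB* is shown first (chr6:31945845-31946144, plus strand), followed by *C1R* at its outer start site (chr12:7092396-7092695, minus strand), *C1R* at an inner start site (chr12:7091844-7092143, minus strand), and *CD59* (chr11:33736430-33736729, minus strand).
CFB: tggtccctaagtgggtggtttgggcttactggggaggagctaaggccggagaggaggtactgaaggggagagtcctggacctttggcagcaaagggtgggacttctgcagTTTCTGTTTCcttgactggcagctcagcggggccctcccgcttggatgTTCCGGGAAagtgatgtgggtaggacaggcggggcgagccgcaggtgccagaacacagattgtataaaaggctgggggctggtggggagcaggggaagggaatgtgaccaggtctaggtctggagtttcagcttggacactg
C1R, outer: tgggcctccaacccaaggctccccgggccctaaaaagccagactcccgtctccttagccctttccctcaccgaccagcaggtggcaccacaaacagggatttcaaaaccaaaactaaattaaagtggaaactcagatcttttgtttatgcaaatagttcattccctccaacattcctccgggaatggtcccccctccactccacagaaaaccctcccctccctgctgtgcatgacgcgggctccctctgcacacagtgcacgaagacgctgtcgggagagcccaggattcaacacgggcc
C1R, inner: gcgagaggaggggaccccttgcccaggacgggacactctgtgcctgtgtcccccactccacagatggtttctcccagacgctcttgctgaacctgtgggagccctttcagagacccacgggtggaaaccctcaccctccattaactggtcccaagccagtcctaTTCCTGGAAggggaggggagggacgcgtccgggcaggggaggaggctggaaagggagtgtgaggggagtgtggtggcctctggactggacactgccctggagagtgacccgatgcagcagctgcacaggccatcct
CD59: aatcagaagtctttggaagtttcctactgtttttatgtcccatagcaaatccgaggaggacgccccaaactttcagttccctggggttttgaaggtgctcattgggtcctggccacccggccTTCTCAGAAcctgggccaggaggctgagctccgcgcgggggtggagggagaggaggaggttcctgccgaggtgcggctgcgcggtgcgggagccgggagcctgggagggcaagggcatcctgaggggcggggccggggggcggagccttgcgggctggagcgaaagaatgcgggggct

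*CFB* held a gamma-activated site, TTCCGGGAA, from -92 to -84 relative to its start site, and a response element on the opposite strand, TTTCTGTTTC, from -140 to -131. The inner *C1R* window held the gamma-activated site TTCCTGGAA from -86 to -78, and the outer *C1R* window held no match. The *CD59* window held TTCTCAGAA from -128 to -120, and the same bases recurred in an overlapping *CD59* window. The *CD59* windows at inner start sites (chr11:33722900-33723199 and chr11:33722678-33722977) held no match. No window of *CFI*, *CD46* or *CD55* held any of the 3 motifs, and no window of the 6 genes held the NF-kB motif. None of the matches overlapped another motif. Of all 35116 RefSeq windows of this length, 7.66% held the gamma-activated site, 3.57% the response element and 5.91% the NF-kB motif. Counted by gene, with a match in any window, the shares of 27305 genes were 9.38%, 4.38% and 7.09%. A match describes letters in a window and was not tested for binding.

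IFNγ raised the transcripts of 5 of the 9 genes, *C1R*, *C1S*, *C3*, *CFB* and *SERPING1*, in each of the 3 siRNA groups, and none of the 9 passed the thresholds in the lower direction. Over all 17982 genes tested, 6.67% were called higher and 1.45% lower in siNC, 5.58% and 1.30% in siPDL1-1, and 3.62% and 1.65% in siPDL1-2. The median log2 change of the 9 genes was 0.88, 1.03 and 1.17 in these 3 groups, beside 0.00, -0.02 and -0.015 over all genes tested. In all 3 groups *SERPING1* had the largest change, *CFB* the next and *C3* the smallest of the 5, with *C1S* and *C1R* between. The calls of these 5 genes held, with their direction, under every alternative run.

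**Figure D1:**
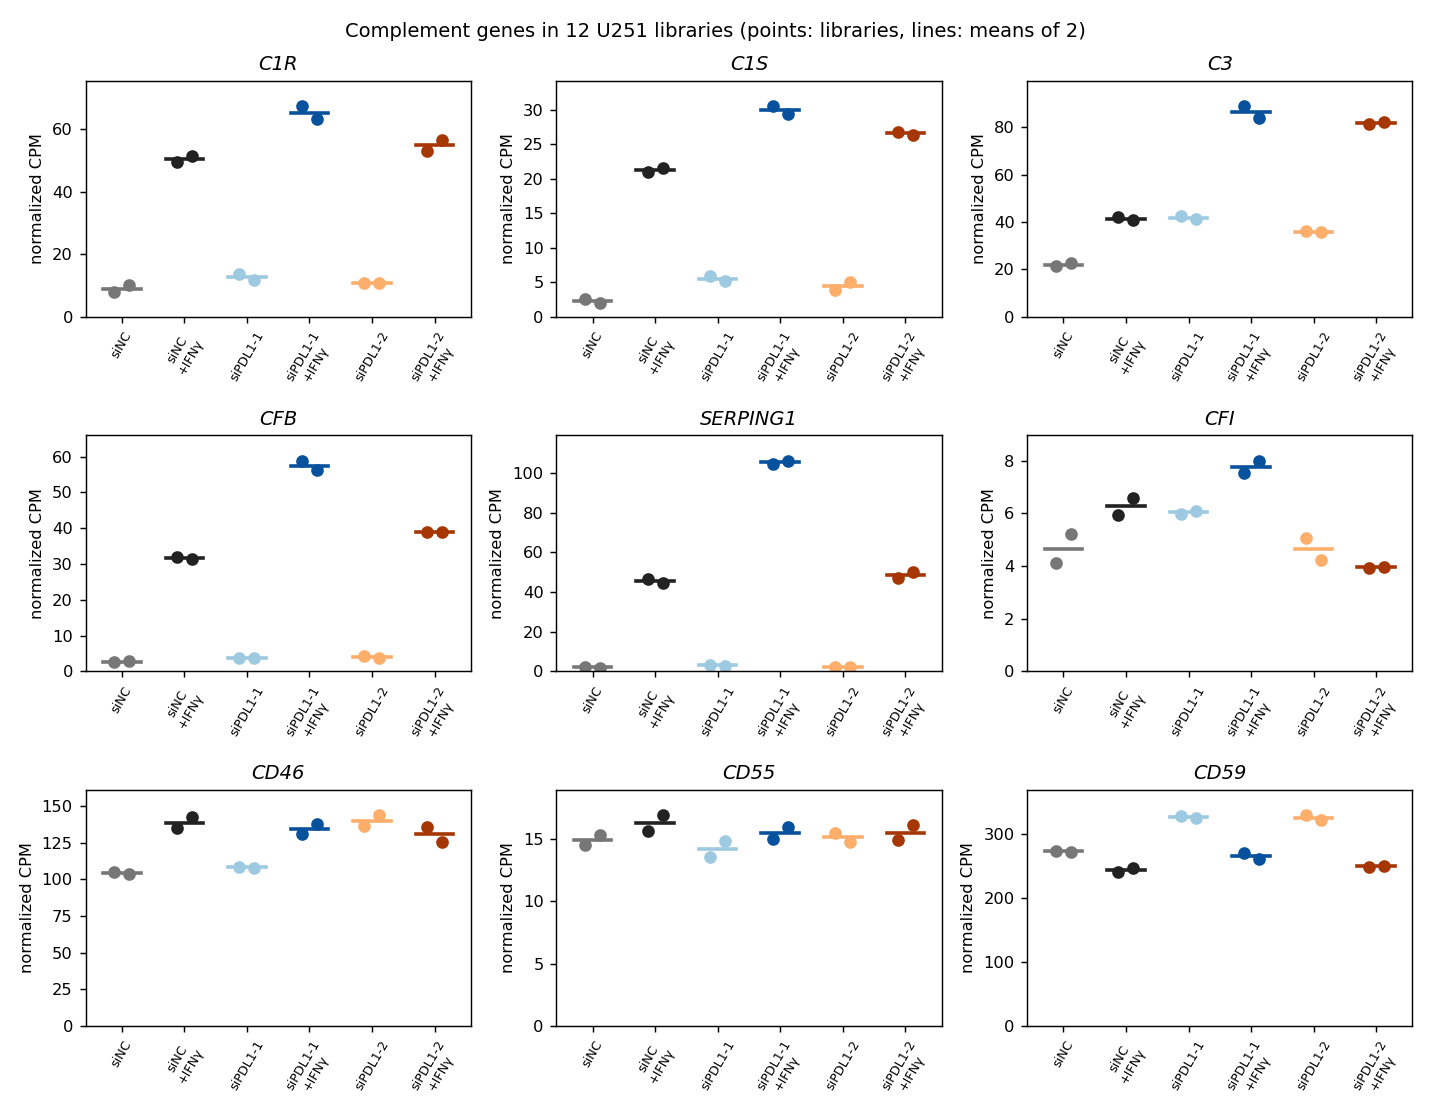
Normalized CPM of the 9 genes (y axis of each panel, linear from 0) in the 6 conditions (x axis). Points are single libraries and lines are means of 2. *C1R*, *C1S*, *CFB* and *SERPING1* are near the bottom of their panels in unstimulated cells and high in all 6 IFNγ-stimulated libraries, *C3* is raised both by the siRNAs and by IFNγ, and *CD55* stays between 13.6 and 16.9 CPM.

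*C1R* (ENSG00000159403, chr12:7080214-7092540 on GRCh38, minus strand) encodes the protease that activates C1s within the C1 complex. It stood at 7.98 and 10.1 CPM in unstimulated siNC libraries, at 13.7 and 11.9 CPM in siPDL1-1, and at 10.9 CPM in both siPDL1-2 libraries. After IFNγ it was at 49.3 and 51.5 CPM in siNC, 67.2 and 63.1 CPM in siPDL1-1, and 53.1 and 56.4 CPM in siPDL1-2. Every stimulated library lay far above every unstimulated library, and no 2 of the 6 conditions overlapped. The IFNγ change was 2.37 ± 0.09 (SE, n = 2 per group) in siNC, 5.59-fold in mean CPM, with an FDR of 1.93e-11 by limma. It was 2.27 ± 0.09 in siPDL1-1 (FDR = 2.38e-11) and 2.22 ± 0.09 in siPDL1-2 (FDR = 4.48e-11). The neighboring *C1RL* overlaps *C1R* on the same strand at a mean of 31.3 CPM, beside 33.8 CPM for *C1R*, so that reads in the shared part may have been assigned to either.

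*C1S* (ENSG00000182326, chr12:6988259-7071032, plus strand) encodes the protease that cleaves C4 and C2. In unstimulated siNC libraries it was at 2.64 and 2.00 CPM, from 54 and 79 reads. Unstimulated siPDL1-1 libraries held 5.86 and 5.23 CPM and siPDL1-2 libraries 3.86 and 4.97 CPM. Stimulated libraries held 21.0 and 21.6 CPM in siNC, 30.5 and 29.3 CPM in siPDL1-1, and 26.8 and 26.4 CPM in siPDL1-2. As for *C1R*, the 6 conditions did not overlap, with siNC lowest and siPDL1-1 highest both before and after IFNγ. IFNγ raised *C1S* by 2.75 ± 0.11 in siNC (9.16-fold, FDR = 2.56e-11), by 2.24 ± 0.11 in siPDL1-1 (5.39-fold, FDR = 2.89e-10) and by 2.36 ± 0.11 in siPDL1-2 (6.02-fold, FDR = 2.16e-10). The difference of these changes from that in siNC was -0.51 (95% confidence interval -0.84 to -0.18) for siPDL1-1 and -0.40 (-0.73 to -0.06) for siPDL1-2, and missed the thresholds (FDR = 0.102 and 0.0691). *EMG1* and *LPCAT3* overlap the listed span of *C1S* at means of 45.4 and 22.7 CPM, *EMG1* on the same strand and *LPCAT3* on the other.

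*C3* (ENSG00000125730, chr19:6677704-6730562, minus strand) encodes the component on which all pathways converge. It was the only 1 of the 9 called in both siRNA comparisons before and after IFNγ as well as in all 3 IFNγ comparisons. In unstimulated cells it was at 21.5 and 22.6 CPM in siNC, 42.5 and 41.0 CPM in siPDL1-1, and 36.0 and 35.6 CPM in siPDL1-2. After IFNγ it was at 42.0 and 40.9 CPM in siNC, 88.8 and 83.9 CPM in siPDL1-1, and 81.3 and 82.0 CPM in siPDL1-2. Unstimulated siPDL1-1 libraries thus overlapped stimulated siNC libraries, and both stimulated *PD-L1* siRNA groups lay above all other libraries. The IFNγ change was 0.88 ± 0.05 in siNC (1.88-fold, FDR = 4.04e-09), 1.03 ± 0.05 in siPDL1-1 (2.07-fold, FDR = 4.81e-10) and 1.17 ± 0.05 in siPDL1-2 (2.28-fold, FDR = 1.37e-10). *GPR108* overlaps *C3* on the same strand at a mean of 122 CPM, beside 51.5 CPM for *C3*, and *AC008760.2* at 0.106 CPM.

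*CFB* (ENSG00000243649, chr6:31945650-31952084, plus strand), whose promoter window held both interferon motifs, encodes the protease of the alternative pathway C3 convertase. It was at 2.60 and 2.76 CPM in unstimulated siNC, 3.68 and 3.77 CPM in siPDL1-1, and 4.27 and 3.81 CPM in siPDL1-2. With IFNγ it reached 31.9 and 31.2 CPM in siNC, 58.8 and 56.1 CPM in siPDL1-1, and 39.1 and 39.0 CPM in siPDL1-2. No conditions overlapped, and siPDL1-1 was the highest group after IFNγ but not before it. IFNγ raised *CFB* by 3.15 ± 0.08 in siNC (11.8-fold, FDR = 4.20e-14), 3.63 ± 0.08 in siPDL1-1 (15.4-fold, FDR = 4.12e-15) and 2.99 ± 0.08 in siPDL1-2 (9.66-fold, FDR = 8.24e-14). *C2* and *AL645922.1*, at means of 6.44 and 0.495 CPM, overlap *CFB* (23.1 CPM) on the same strand.

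*SERPING1* (ENSG00000149131, chr11:57597387-57619171, plus strand) encodes C1 inhibitor, which inactivates C1r and C1s. It had the largest IFNγ change of the 9 genes. Unstimulated libraries were at 2.35 and 1.72 CPM in siNC, 3.31 and 2.90 CPM in siPDL1-1, and 2.42 and 2.29 CPM in siPDL1-2. Stimulated libraries were at 46.7 and 44.7 CPM in siNC, 104.8 and 106.3 CPM in siPDL1-1, and 46.9 and 50.4 CPM in siPDL1-2. Unstimulated siNC and siPDL1-2 libraries overlapped. The stimulated siPDL1-1 libraries stood apart from all others, while stimulated siNC and siPDL1-2 libraries were close to each other without overlapping. The rise was 3.95 ± 0.10 in siNC (22.4-fold, FDR = 4.05e-14), 4.70 ± 0.10 in siPDL1-1 (34.0-fold, FDR = 2.78e-15) and 3.89 ± 0.10 in siPDL1-2 (20.7-fold, FDR = 5.04e-14). No other listed gene overlaps *SERPING1*.

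*CFI* (ENSG00000205403, chr4:109740694-109802179, minus strand) encodes factor I, the protease that cleaves C3b and C4b with the help of cofactors such as CD46. It was at 4.11 and 5.21 CPM in unstimulated siNC, 5.98 and 6.10 CPM in siPDL1-1, and 5.08 and 4.24 CPM in siPDL1-2. After IFNγ it was at 5.96 and 6.58 CPM in siNC, 7.55 and 8.00 CPM in siPDL1-1, and 3.93 and 3.97 CPM in siPDL1-2. The stimulated siPDL1-1 libraries were the highest and the stimulated siPDL1-2 libraries the lowest of all 12. The IFNγ differences of 0.37 in siNC (FDR = 0.0191), 0.32 in siPDL1-1 (FDR = 0.0422) and -0.19 in siPDL1-2 (FDR = 0.233) missed the thresholds. *AC126283.2* overlaps *CFI* on the same strand at a mean of 4.75 CPM, beside 5.56 CPM.

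Among the membrane regulators, *CD59* (ENSG00000085063, chr11:33703010-33736479, minus strand), a glycolipid-anchored inhibitor of pore assembly, had lower values after IFNγ in every siRNA group. Its unstimulated libraries were at 273.6 and 273.1 CPM in siNC, 328.8 and 326.4 CPM in siPDL1-1, and 330.2 and 322.8 CPM in siPDL1-2. Its stimulated libraries were at 241.8 and 246.7 CPM in siNC, 271.4 and 262.1 CPM in siPDL1-1, and 249.2 and 251.2 CPM in siPDL1-2. Stimulated and unstimulated libraries did not overlap. The differences of -0.16 ± 0.04 in siNC (FDR = 0.00229), -0.30 ± 0.04 in siPDL1-1 (FDR = 1.34e-05) and -0.38 ± 0.04 in siPDL1-2 (FDR = 1.15e-06) passed the FDR but not the fold threshold. *AL049629.2* overlaps *CD59* at 1.15 CPM, beside 281 CPM.

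*CD46* (ENSG00000117335, chr1:207752054-207795513, plus strand), the membrane cofactor for factor I, was at 105.3 and 103.6 CPM in unstimulated siNC and 108.6 and 108.1 CPM in siPDL1-1, but at 136.4 and 143.9 CPM in siPDL1-2. With IFNγ it was at 134.9 and 142.6 CPM in siNC, 131.0 and 137.7 CPM in siPDL1-1, and 135.8 and 125.7 CPM in siPDL1-2. All stimulated groups and unstimulated siPDL1-2 thus lay above unstimulated siNC and siPDL1-1, and in order of level each of these 4 overlapped the next, although stimulated and unstimulated siPDL1-2 did not overlap. The IFNγ difference was 0.41 ± 0.05 in siNC (FDR = 1.19e-05) and 0.31 ± 0.05 in siPDL1-1 (FDR = 2.00e-04), below the fold threshold, and -0.10 ± 0.05 in siPDL1-2 (FDR = 0.149).

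*CD55* (ENSG00000196352, chr1:207321532-207386804, plus strand), which accelerates the decay of C3 convertases, had the narrowest relative range of the 9 genes over the 12 libraries. Unstimulated libraries were at 14.5 and 15.3 CPM in siNC, 13.6 and 14.8 CPM in siPDL1-1, and 15.5 and 14.8 CPM in siPDL1-2. Stimulated libraries were at 15.7 and 16.9 CPM in siNC, 15.01 and 16.0 CPM in siPDL1-1, and 14.9 and 16.1 CPM in siPDL1-2. Each condition overlapped the next in the order of means. The IFNγ difference in siNC was 0.12 (95% confidence interval -0.05 to 0.28, FDR = 0.265). None of its differences in the 11 contrasts exceeded 0.12, and none passed either threshold. Neither *CD46* nor *CD55* overlaps another listed gene.

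**Figure D2:**
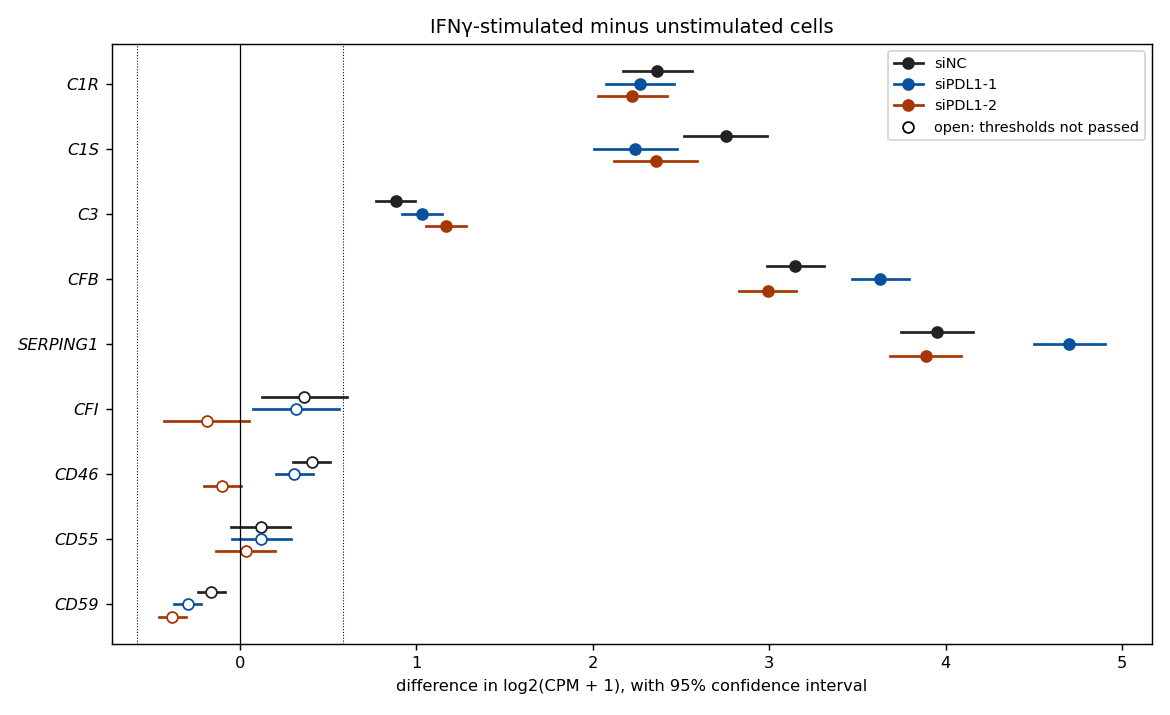
Difference between IFNγ-stimulated and unstimulated cells in log2(CPM + 1) (x axis) for each gene (y axis) and siRNA group (color), with 95% confidence intervals. Filled points passed both thresholds, open points did not, and dotted lines mark a fold change of 1.5. *C1R*, *C1S*, *C3*, *CFB* and *SERPING1* lie right of the line in all 3 groups, and *CD59* lies left of 0 in all 3.

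To ask how the siRNAs against *PD-L1* altered these genes in stimulated cells, the 6 IFNγ-stimulated libraries were compared. *CD274* was not called lower with siPDL1-1 in these libraries (63.8 against 73.6 CPM on average), so the siPDL1-1 values describe cells given that siRNA. With siPDL1-1, *SERPING1*, *C3* and *CFB* were higher than in siNC, which makes 3 of the 9 genes higher and 0 lower, beside 3.76% and 1.76% of the 17148 genes tested. *SERPING1* rose by 1.19 ± 0.07 (2.31-fold, FDR = 5.58e-07), *C3* by 1.040 ± 0.063 (2.08-fold, FDR = 1.14e-06) and *CFB* by 0.84 ± 0.07 (1.82-fold, FDR = 9.09e-06). *C1S* (0.47, FDR = 0.000858) and *C1R* (0.36, FDR = 0.00269) passed the FDR but not the fold threshold. *CFI* (0.27), *CD59* (0.13), *CD46* (-0.05) and *CD55* (-0.07) had FDR values between 0.0849 and 0.637.

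With siPDL1-2, the only one of the 9 genes called against siNC after IFNγ was *C3*, which rose by 0.96 ± 0.06 (1.97-fold, FDR = 1.34e-05), beside 1.80% of all genes called higher and 1.11% lower. *SERPING1* differed by 0.09 (95% confidence interval -0.06 to 0.23, FDR = 0.371) and *C1R* by 0.12 (-0.03 to 0.27, FDR = 0.250). *CFB* (0.30, FDR = 0.0101) and *C1S* (0.31, FDR = 0.0132) lay just over the FDR threshold. *CFI* differed by -0.55 (FDR = 0.00534), short of the fold threshold. It passed that threshold at -0.65 with a pseudocount of 0.1 or edgeR's quasi-likelihood test, at -0.60 with a pseudocount of 0.5, and at -0.615 without siNC replicate 1. The siNC libraries are the same in both comparisons, so the 2 sets of values are not independent.

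The 2 siRNAs were also set against each other in stimulated cells. *SERPING1* was 1.10 ± 0.07 higher with siPDL1-1 than with siPDL1-2 (2.17-fold, FDR = 1.32e-06) and *CFI* 0.83 ± 0.11 higher (1.97-fold, FDR = 0.000686), beside 1.73% of genes called higher and 0.385% lower. The *CFI* call was lost when either stimulated siPDL1-2 library was left out (0.82 and 0.83, FDR = 0.0127 in both cases). *CFB* differed by 0.55 (FDR = 0.000417), under the fold threshold. *C3* did not separate the siRNAs, at 0.08 (95% confidence interval -0.06 to 0.22, FDR = 0.473). The interferon-stimulated genes *MX1*, *MX2*, *OAS1*, *OAS2*, *IFIT1*, *IFIT3*, *RSAD2*, *IFI44L* and *ISG15* had 9 values that summed to between 3019 and 3033 CPM in stimulated siPDL1-1 libraries, 281 to 306 CPM in siNC and 325 to 342 CPM in siPDL1-2. Of the 9, 8 were called higher with IFNγ in each siRNA group and 8 were higher with siPDL1-1 than with siPDL1-2, and their part in the siPDL1-1 values of complement genes was not tested.

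In unstimulated cells, *C1S* and *C3* were higher with either siRNA. With siPDL1-1, *C1S* rose by 0.98 ± 0.11 (2.39-fold, FDR = 9.58e-06) and *C3* by 0.89 ± 0.05 (1.90-fold, FDR = 1.98e-08), so that 2 of the 9 genes were called, beside 2.55% of genes called higher and 1.45% lower. With siPDL1-2, *C1S* rose by 0.705 ± 0.110 (1.90-fold, FDR = 0.000132) and *C3* by 0.68 ± 0.05 (1.62-fold, FDR = 2.41e-07), beside 4.84% called higher and 1.33% lower. The *C1S* call with siPDL1-2 fell under the fold threshold without siNC replicate 2 (0.56) or without siPDL1-2 replicate 2 (0.555). The unstimulated siNC libraries are shared by both comparisons. The same 9 interferon-stimulated genes summed to 69.6 to 69.9 CPM in siPDL1-1, 34.7 to 35.2 CPM in siNC and 29.0 to 30.3 CPM in siPDL1-2.

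Several other genes passed the FDR but not the fold threshold in unstimulated cells. With siPDL1-1 these were *C1R* (0.46, FDR = 0.00129), *SERPING1* (0.44, FDR = 0.00261), *CFB* (0.36, FDR = 0.00212) and *CD59* (0.26, FDR = 6.75e-05). *C1R* passed both thresholds without siNC replicate 2 (0.61), and *SERPING1* passed both with a pseudocount of 0.1 (0.60), edgeR (0.63), DESeq2 (0.64) or without siNC replicate 1 (0.59). With siPDL1-2 they were *CFB* (0.45, FDR = 0.000235), *CD46* (0.42, FDR = 1.15e-05) and *CD59* (0.26, FDR = 5.58e-05). Between the 2 siRNAs none of the 9 genes was called, beside 0.884% of genes higher and 3.47% lower with siPDL1-1. *CD46* was at -0.37 (FDR = 5.69e-05) and *C3* at 0.22 (FDR = 0.00476) in that comparison, both under the fold threshold.

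**Figure D3:**
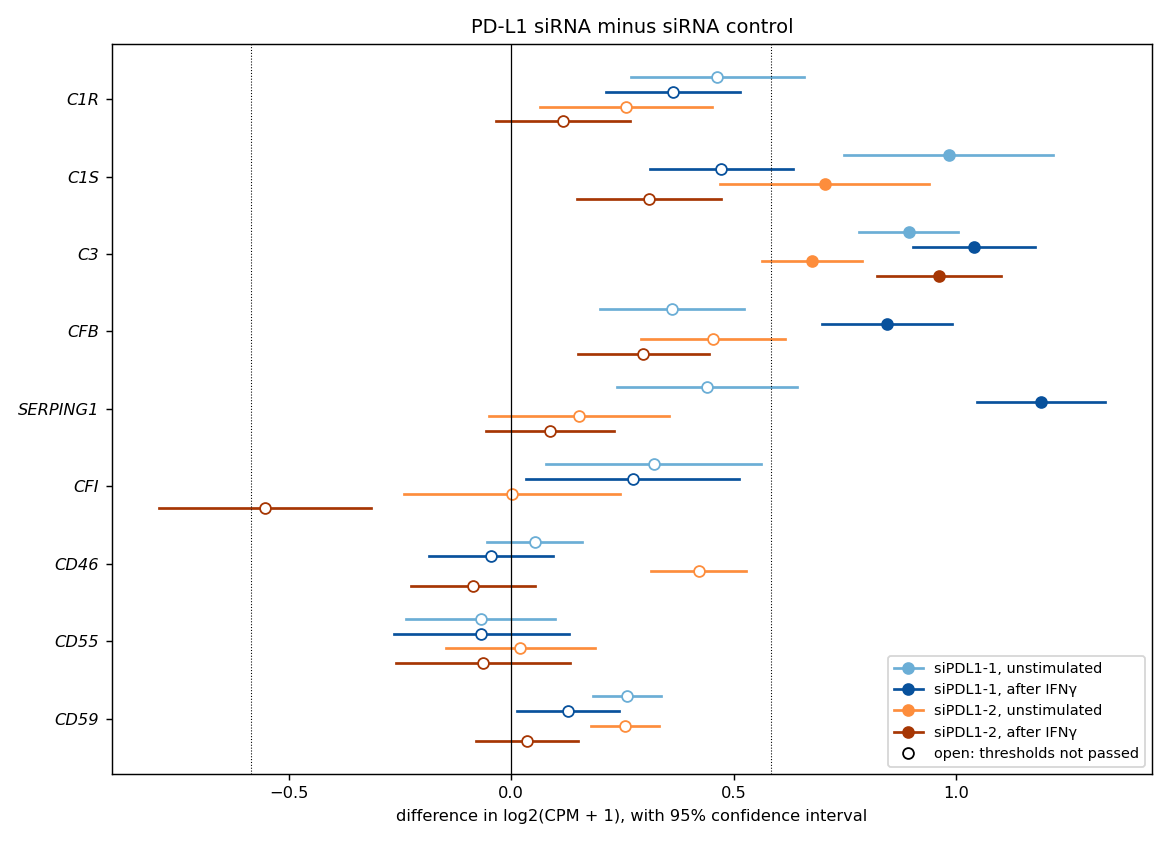
Difference between each *PD-L1* siRNA and the siRNA control in log2(CPM + 1) (x axis) for each gene (y axis), in unstimulated (pale) and IFNγ-stimulated cells (dark), with 95% confidence intervals. Filled points passed both thresholds and dotted lines mark a fold change of 1.5. *C3* is filled in all 4 comparisons, whereas *CFB* and *SERPING1* are filled only for siPDL1-1 after IFNγ.

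Whether the response to IFNγ itself depended on the siRNA was tested as an interaction. The IFNγ change of *SERPING1* was 0.75 ± 0.13 larger with siPDL1-1 than with siNC (FDR = 0.00442), which makes 1 of the 9 genes, beside 0.890% of genes called higher and 0.0779% lower. That call was lost with no filter (FDR = 0.0217), with pseudocounts of 0.1 and 0.5 (0.61 and 0.68, FDR = 0.0663 and 0.0186), and with edgeR and DESeq2 (0.58 in both, FDR = 0.0751 and 0.0697). It was also lost without unstimulated siNC replicate 1 (0.60), stimulated siNC replicate 1 (0.78) or 2 (0.72), or unstimulated siPDL1-1 replicate 2 (0.68), at FDR values from 0.0103 to 0.0341. *CFB* had an interaction of 0.48 (FDR = 0.0212) and *C3* of 0.15 (FDR = 0.361) with siPDL1-1. With siPDL1-2 none of the 9 was called, beside 1.84% higher and 5.78% lower. *CD46* (-0.51, FDR = 0.000159), *C3* (0.29, FDR = 0.00979) and *CD59* (-0.22, FDR = 0.00472) passed the FDR only, and *CFI* was at -0.56 (FDR = 0.0172). *CFI* passed both thresholds without unstimulated siNC replicate 2 (-0.70, FDR = 0.00928).

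Of 51 other complement genes, 19 passed the filter over all libraries and 18 over the stimulated libraries. Among the 16 of classical and lectin initiation, 8 were tested, and 4 rose with IFNγ in every siRNA group, namely *C2*, *C4A*, *C4B* and *COLEC12*. In all, IFNγ called 4 of the 19 higher and 1 lower in siNC, 5 and 1 in siPDL1-1, and 4 and 0 in siPDL1-2. Beside these, 6.67% of all 17982 genes tested were called higher and 1.45% lower in siNC. The shares were 5.58% and 1.30% in siPDL1-1, and 3.62% and 1.65% in siPDL1-2. The median changes of the 19 were -0.05, -0.05 and 0.06, beside 0.001, -0.016 and -0.015 over all genes tested. *C4A*, a substrate of C1s, rose from 2.60 and 2.18 CPM to 23.9 and 28.1 CPM in siNC (3.00 ± 0.11, FDR = 6.24e-12), and *C4B* from 3.08 and 1.90 CPM to 12.5 and 9.17 CPM (1.77 ± 0.16, FDR = 2.20e-06). These 2 genes are near-identical copies, so the split of reads between them is uncertain. *C2*, the other substrate, rose from 0.147 and 0.557 CPM to 8.41 and 8.76 CPM (2.84 ± 0.14, FDR = 4.52e-10). *COLEC12*, a scavenger collectin, rose from 0.392 and 0.886 CPM to 5.66 and 4.84 CPM (1.94 ± 0.14, FDR = 4.99e-08).

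*CFD*, the protease that cleaves factor B, was the only gene of the list called lower with IFNγ, from 4.41 and 5.80 CPM to 2.60 and 1.60 CPM in siNC (decreased by 0.99, FDR = 6.91e-05). In siPDL1-1 *CFD* went from 7.66 and 7.08 CPM to 4.48 and 4.56 CPM, and was called (-0.60, FDR = 0.00478). That call was lost when any of these 4 libraries was left out (-0.65 to -0.55). It was also lost with no filter (FDR = 0.0166) and with a pseudocount of 0.1 (-0.69, FDR = 0.0105). In siPDL1-2 *CFD* went from 3.57 and 3.69 CPM to 5.28 and 5.85 CPM, a difference of 0.50 that missed the thresholds (FDR = 0.0173). The siPDL1-2 and siNC changes differed by 1.49 ± 0.20 (FDR = 0.000151). *C3AR1*, the receptor for C3a, was called with IFNγ in siPDL1-1, from 0.116 and 0.353 CPM to 1.42 and 1.08 CPM (0.87 ± 0.14, FDR = 0.000175). This call rested on 4 and 15 reads unstimulated and 50 and 23 reads stimulated. The IFNγ difference of *C3AR1* was -0.02 in siNC (FDR = 0.919) and 0.27 in siPDL1-2 (FDR = 0.166). Its siPDL1-1 and siNC changes differed by 0.89, which missed the FDR threshold (FDR = 0.0193).

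After IFNγ, 6 of the 18 were higher with siPDL1-1 than with siNC (*C2*, *C4A*, *C4B*, *CFD*, *CSMD2* and *C3AR1*, from 0.64 to 0.85). With siPDL1-2, 4 were higher (*C4A*, *C4B*, *CFD* and *C5AR1*, from 0.61 to 1.10), with 0 lower in either. Over all 17148 genes tested, 3.76% were called higher and 1.76% lower with siPDL1-1, and 1.80% and 1.11% with siPDL1-2. The siPDL1-1 calls of *C2*, *C4A* and *CSMD2* held whichever library was left out. That of *C4B* was lost without siNC replicate 2 (0.46) or without any siPDL1-1 or siPDL1-2 library (FDR = 0.0101 to 0.0394), that of *CFD* without siNC replicate 2 (FDR = 0.0121) or either siPDL1-1 library (FDR = 0.0127 and 0.0119), and that of *C3AR1* without siNC or siPDL1-1 replicate 1 (FDR = 0.0101 and 0.0273). With siPDL1-2, *C4A* was lost without siNC replicate 1 (0.50) or either siPDL1-2 library (FDR = 0.0439 and 0.0173), *C4B* without siNC replicate 2 (0.54) or any library of the *PD-L1* siRNAs (FDR = 0.011 to 0.0594), and *CFD* without either siPDL1-2 library (FDR = 0.0157 and 0.0246). *C5AR1* was lost without siNC replicate 2 or either siPDL1-2 library (FDR = 0.0403 to 0.116), and also with no filter, smaller pseudocounts, edgeR and replicate number as a block.

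In unstimulated cells *C4A* (0.95 and 0.83) and *MASP1* (0.62 and 0.66) were higher with siPDL1-1 and siPDL1-2, and *CSMD2* (0.79) and *SUSD4* (0.655) with siPDL1-1. The *MASP1* calls rested on 7 to 57 reads per library. They were lost for siPDL1-1 without siNC replicate 1 (FDR = 0.0398), without siPDL1-1 replicate 1 (0.0595) and with no filter (0.0119), and for siPDL1-2 without siNC replicate 1 (0.0185) or siPDL1-2 replicate 1 (0.0194). *CFD* was 0.85 higher with siPDL1-1 than with siPDL1-2 in unstimulated cells (FDR = 0.000365). Of the 9 other genes tested, none was called in any contrast, among them *CLU* (180 CPM on average), *C1QBP* (242 CPM), *C1RL* (31.3 CPM) and *C5* (9.23 CPM), the only one of 7 terminal components that was tested. Some still passed the FDR without the fold threshold. With siPDL1-2 in unstimulated cells these included *C5* (0.555, FDR = 0.000228), *C1RL* (0.50, FDR = 5.89e-05) and *C1QBP* (-0.37, FDR = 1.94e-06). The siPDL1-2 interaction of *C5* was -0.584 (FDR = 0.00392), just short of the fold threshold. *C1QA*, *C1QB* and *C1QC*, the chains of the recognition subunit that C1r and C1s bind, had at most 1 read in any library.

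**Figure D4:**
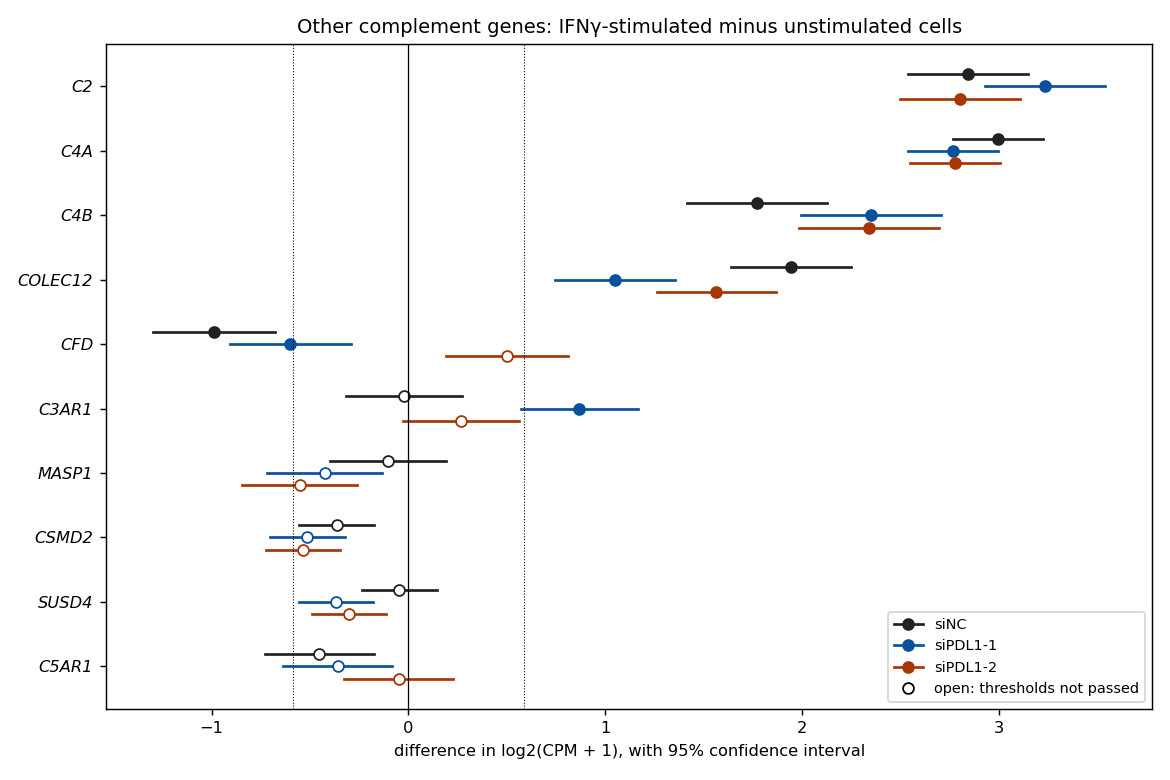
Difference between IFNγ-stimulated and unstimulated cells in log2(CPM + 1) (x axis) for the 10 other complement genes called in at least 1 of the 11 contrasts (y axis), by siRNA group (color), with 95% confidence intervals. Filled points passed both thresholds and dotted lines mark a fold change of 1.5. *C2*, *C4A*, *C4B* and *COLEC12* are right of the line in all 3 groups, and *CFD* is left of 0 in siNC and siPDL1-1 and right of 0 in siPDL1-2.

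Across the 12 libraries, the pattern of each gene was set beside 14277 tested genes whose mean reached 1 CPM, as Pearson's r of log2(CPM + 1). The libraries share siRNA and IFNγ conditions, so these r describe a shared layout. *CFB* was most like *PARP9* (0.999), *IFI35* (0.9985) and *CEACAM1* (0.998), and *SERPING1* most like *SAMHD1* (0.9985), *TAP2* (0.998) and *XAF1* (0.997). *C1R* was most like *HLA-C* (0.996), *APOL4* (0.995) and *C2* (0.995), and *C1S* most like *MRAS* (0.9975), *C4A* (0.994) and *TAPBP* (0.993). *C3* had other neighbors, *ACP5* (0.987), *C1QTNF6* (0.986) and *PDGFRL* (0.976). *CD46* was most like *TAOK1* (0.990) and *CD59* most like *PPP1R1B* (0.985), whereas the best matches of *CFI* (*ARL2BP*, 0.920) and *CD55* (*FUNDC1*, 0.899) were looser. Among the 9 genes themselves, *C1R*, *C1S*, *CFB* and *SERPING1* correlated with each other at 0.976 to 0.995, *C3* with these at 0.829 to 0.883, and *CD59* with these at -0.749 to -0.664.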

How the data were processed

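The members and gene lists were chosen with earlier results of these data known. CLC Genomics Workbench was used by the authors to trim reads, to align them to GRCh38 (Ensembl), to count both strands together and to normalize. The deposited signal values are these normalized CPM, 1 column per library, for 45416 genes. At least 99.99% of the values of a library were whole multiples of 1 read (tolerance 0.01 reads), which gave the reads per gene. Column sums were not equal, so more than the library total had entered the scaling. Reads without molecular identifiers are not independent molecules.

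Groups came from the sample labels. The main test was limma (trend, robust) on log2(CPM + 1), after filterByExpr on recovered reads (its minimum count set to 10 and minimum total to 15), with Benjamini-Hochberg FDR over all genes. All 12 libraries were fitted as 6 groups for IFNγ effects, unstimulated cells and interactions, and the 6 stimulated libraries as 3 groups for siRNA effects after IFNγ. Thresholds were FDR < 0.01 and fold change > 1.5, those of the study. The alternatives were DESeq2's size factors and Wald test, edgeR's quasi-likelihood test, no filter, pseudocounts of 0.1 and 0.5, replicate number as a block, leaving out each library, other thresholds, and 1 fit of all libraries. A block with crossed numbers was chosen after seeing the data.

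Named genes were all 9 members, *CD274*, the other complement genes called in at least 1 of 11 contrasts, and the 3 genes most like each member; *C1RL*, *CLU*, *C1QBP*, *C5* and the C1q chains were picked after their values were seen. The result for 1 further gene of the list is not reported here. The tests were first tested on simulated data. Replicates were not copies, with a mean chi-square between them of 1.85 to 7.37. The sample labels name another extraction kit and instrument than the methods. Tests ran in limma 3.58.1, DESeq2 1.42.0 and edgeR 4.0.16 under R 4.3.3, and figures in matplotlib 3.10.9 with pandas 2.3.3, numpy 2.4.6 and Python 3.11.15.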

Additional observations from a re-analysis of the deposited data

Results flagged for a closer look

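In 2 cases the change with IFNγ differed between an siRNA against *PD-L1* and the siRNA control by a test of the interaction. For *SERPING1* with siPDL1-1 the difference was 0.75 on the log2 scale (FDR = 0.00442), and for *CFD* with siPDL1-2 it was 1.49 (FDR = 0.000151). The *SERPING1* call was lost in 9 of 21 other settings, among them edgeR and DESeq2 (0.58 in both). That of *CFD* held in every setting. Groups of 2 libraries were not tested for single libraries that stand apart.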

How the results depend on the processing

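Of 1953 values of the 9 genes under other settings, 1909 kept their side of the thresholds, 13 lost a call and 31 gained one, and none changed direction with a call. Of 781 values of the other named genes, 740 kept their call and 41 lost it. These genes were followed only in contrasts where the main test had called them, so none could gain a call. Both totals include runs without a library outside the comparison, which left the estimate unchanged. The number of the 9 genes called with IFNγ stayed at 5 in each siRNA group under every alternative that was run except the FDR without the fold threshold, which gave 7 in siNC, 7 in siPDL1-1 and 6 in siPDL1-2, adding *CD59* as lower in each group and *CD46* as higher in siNC and siPDL1-1. Without the fold threshold the count also became 5 for siPDL1-1, 2 for siPDL1-2 and 3 for siPDL1-1 against siPDL1-2 after IFNγ, 6, 5 and 2 for siPDL1-1, siPDL1-2 and their difference in unstimulated cells, and 3 for the siPDL1-2 interaction, while calls over all genes grew 1.68 to 5.54 times. For siPDL1-2 after IFNγ it was 2 with pseudocounts of 0.1 or 0.5 and with edgeR, where *CFI* was added. The siPDL1-1 interaction went from 1 to 0 with no filter, with pseudocounts of 0.1 and 0.5, with edgeR and with DESeq2. For siPDL1-1 in unstimulated cells it was 3 in place of 2 with a pseudocount of 0.1, with edgeR and with DESeq2, where *SERPING1* was added. With single libraries left out, the counts ranged from 1 to 2 for siPDL1-2 after IFNγ, for siPDL1-1 against siPDL1-2 after IFNγ and for siPDL1-2 in unstimulated cells, from 2 to 3 for siPDL1-1 in unstimulated cells (*SERPING1* added without siNC replicate 1, *C1R* without siNC replicate 2), and from 0 to 1 for each interaction.

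With replicate number as a block, the counts were 5, 5 and 5 for IFNγ and 3, 1 and 2 for the comparisons after IFNγ, and of all named calls only that of *C5AR1* was lost (0.625, FDR = 0.0114). Same-numbered libraries deviated with correlations from -0.132 to 0.193, which shows no strong deviation shared by number. Whether the numbers mark the independent experiments is not stated, and these correlations cannot tell. Crossing the numbers of unstimulated siNC left 5 calls.

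Over all genes, 499 were called with siPDL1-2 after IFNγ and 362 for siPDL1-1 against siPDL1-2. Both numbers fell without either stimulated siPDL1-2 library. With siPDL1-2 after IFNγ, higher calls then no longer outnumbered lower calls, so the shares of 1.80% and 1.11% depend on having both libraries. The 1370 calls of the siPDL1-2 interaction fell when any unstimulated library was left out, or replicate 2 of stimulated siNC or siPDL1-2. Those calls rose when replicate 1 of stimulated siNC or siPDL1-2, or either stimulated siPDL1-1 library, was left out. The cause was not tested. DESeq2's Wald test moved the share of higher calls in that interaction from 24.1% to 36.1%, edgeR to 34% and DESeq2's size factors to 33.9%. With 2 libraries per condition, small differences of low genes such as *CFI* and *C1S* are limited by depth and spread.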
